A study of Mus musculus with 36 samples.

Results

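The 10 genes of the Notch pathway followed here in mouse liver RNA were the receptors Notch1, Notch2 and Notch3, the ligands Jag1 and Dll4, the nuclear factor Rbpj, the target genes Hes1, Hey1 and Heyl, and the Deltex gene Dtx4. They are 10 of the 24421 genes in the files, and all 10 had enough reads to be tested in each comparison. Dtx4 was chosen by its small p-value between the treatment groups under the standard diet, so its values there, and in any comparison that uses those mice, are a description with no test. The other 9 genes were chosen by pathway name with earlier results of these data known.

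Notch receptors are cut in 2 steps after a ligand on a neighbouring cell binds them, first by an ADAM protease at the cell surface and then by γ-secretase within the membrane. The released part of the receptor enters the nucleus, where it binds RBPJ and switches on targets such as the HES and HEY repressors. In liver, the pathway is known for its role in bile duct formation, in vessels, and in stellate cells and injured hepatocytes during fibrosis. Deltex proteins such as DTX4 are ubiquitin ligases that bind the intracellular part of Notch and act on its trafficking and turnover.

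Each of the 36 libraries came from the liver of 1 male C57BL/6J mouse, bought at 7 weeks of age and fed CDAHFD, a choline-deficient, amino acid-defined high-fat diet that causes steatohepatitis, for 12 weeks. Under the HFD, a high-fat diet given for 2 weeks, 2 weekly subcutaneous doses were given, of Fc (4.3 mg/kg) to 10 mice or of Fc(mML1)B3 (5 mg/kg) to another 10. Under a standard diet given for 10 days, doses of that size were injected on days 1, 4 and 7, with Fc in 9 mice and Fc(mML1)B3 in 7. Fc is the crystallizable fragment of human IgG1, and Fc(mML1)B3 is Fc with a macrocyclic peptide in its B3 loop that binds and activates Met, the receptor of hepatocyte growth factor. All 4 groups carry the effect of the earlier CDAHFD feeding and none is a healthy liver. Diet goes together with experiment, dosing and duration, and these cannot be told apart. A sequencing run that differed between the diets could not be told apart from them either. Libraries held 14949035 to 28466853 counts. The numbers in the column headers of the files fall into separate series, which split the Fc(mML1)B3 mice under the HFD into mice 1 to 4 and mice 5 to 10, and the Fc mice under the standard diet into mice 1 to 5 and mice 6 to 9. Under the standard diet, the numbers of all 7 Fc(mML1)B3 mice follow those of Fc mice 6 to 9. Fc mice 1 to 5 thus have no Fc(mML1)B3 mice in their series, and treatment goes partly together with series there. The comparison with Fc mice 6 to 9 alone stays within a series. Under the HFD, the numbers of the Fc mice restart at mouse 5 without a repeat, and all 10 were the reference for each part. Whether a series was a batch is not known. Results are also given within these parts. The hepatocyte marker Alb was between 55800 and 120000 CPM, counts scaled to a common library size, in every mouse, so the defining marker of the labelled tissue was present.

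A pair of pathway genes bears on the results below through a change of their own, and the sequences before their start sites are shown as context. Notch1 is the receptor that differed between the treatment groups under the standard diet, and Psen2 encodes a catalytic subunit of γ-secretase that differed under both diets. The 250 bases before each start come from RefSeq (GRCm38.p6, the build of mm10), on the strand of the gene, at chr2:26503823-26504072 (minus strand) for Notch1, chr1:180256301-180256550 (minus strand) for the outer start of Psen2 and chr1:180245951-180246200 (minus strand) for an inner one. Capitals mark the RBPJ core GTGGGAA and the E-box CACGTG, the letters bound by CLOCK and BMAL1, searched on both strands.
Notch1: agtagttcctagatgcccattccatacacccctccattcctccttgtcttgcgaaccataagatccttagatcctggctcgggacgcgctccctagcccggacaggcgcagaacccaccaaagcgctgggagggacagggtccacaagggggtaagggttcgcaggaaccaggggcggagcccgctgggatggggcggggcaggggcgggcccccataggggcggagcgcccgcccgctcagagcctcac
Psen2, outer start: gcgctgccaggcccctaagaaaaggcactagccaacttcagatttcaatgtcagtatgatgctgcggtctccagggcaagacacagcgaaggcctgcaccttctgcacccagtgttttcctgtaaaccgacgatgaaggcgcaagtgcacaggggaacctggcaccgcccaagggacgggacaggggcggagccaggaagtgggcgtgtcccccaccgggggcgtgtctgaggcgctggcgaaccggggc
Psen2, inner start: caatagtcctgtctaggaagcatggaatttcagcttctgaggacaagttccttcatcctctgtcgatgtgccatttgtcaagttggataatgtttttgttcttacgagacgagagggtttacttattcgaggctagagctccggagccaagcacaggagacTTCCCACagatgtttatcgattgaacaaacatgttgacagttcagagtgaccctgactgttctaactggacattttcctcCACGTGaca
Neither motif was in the windows of Notch1 or of the outer Psen2 start. The inner Psen2 start had 1 match of each, 89 and 9 bases before it. Over 32851 windows of the same length, 5.42% held the RBPJ core and 6.02% the E-box. Of the 10 genes, 6 had a window in this table (Notch1, Notch2, Notch3, Jag1, Dll4 and Rbpj), and none of the 6 held either motif. These matches are letters only, and binding was not measured.

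Levels between genes were compared as CPM per kilobase of exons. Hes1, a repressor that Notch switches on directly, stood highest in every group, with group means of 7.99 to 11 CPM per kilobase. Notch2 followed with 4.35 to 5.63, above Rbpj, the DNA-binding partner of all Notch receptors, with 2.77 to 3.09. Notch3 and Heyl, both known from mural cells, stood lowest with 0.402 to 0.512 and 0.511 to 0.7. At these levels Notch3, Dll4, Hey1 and Heyl rest on medians of 46 to 111 reads per library in each group, so counting error adds more to their spread than to that of Notch2, with medians of 835.5 to 1418 reads. Each end of a read pair was counted, so these medians stand for fewer independent fragments than reads.

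**Figure D1:**
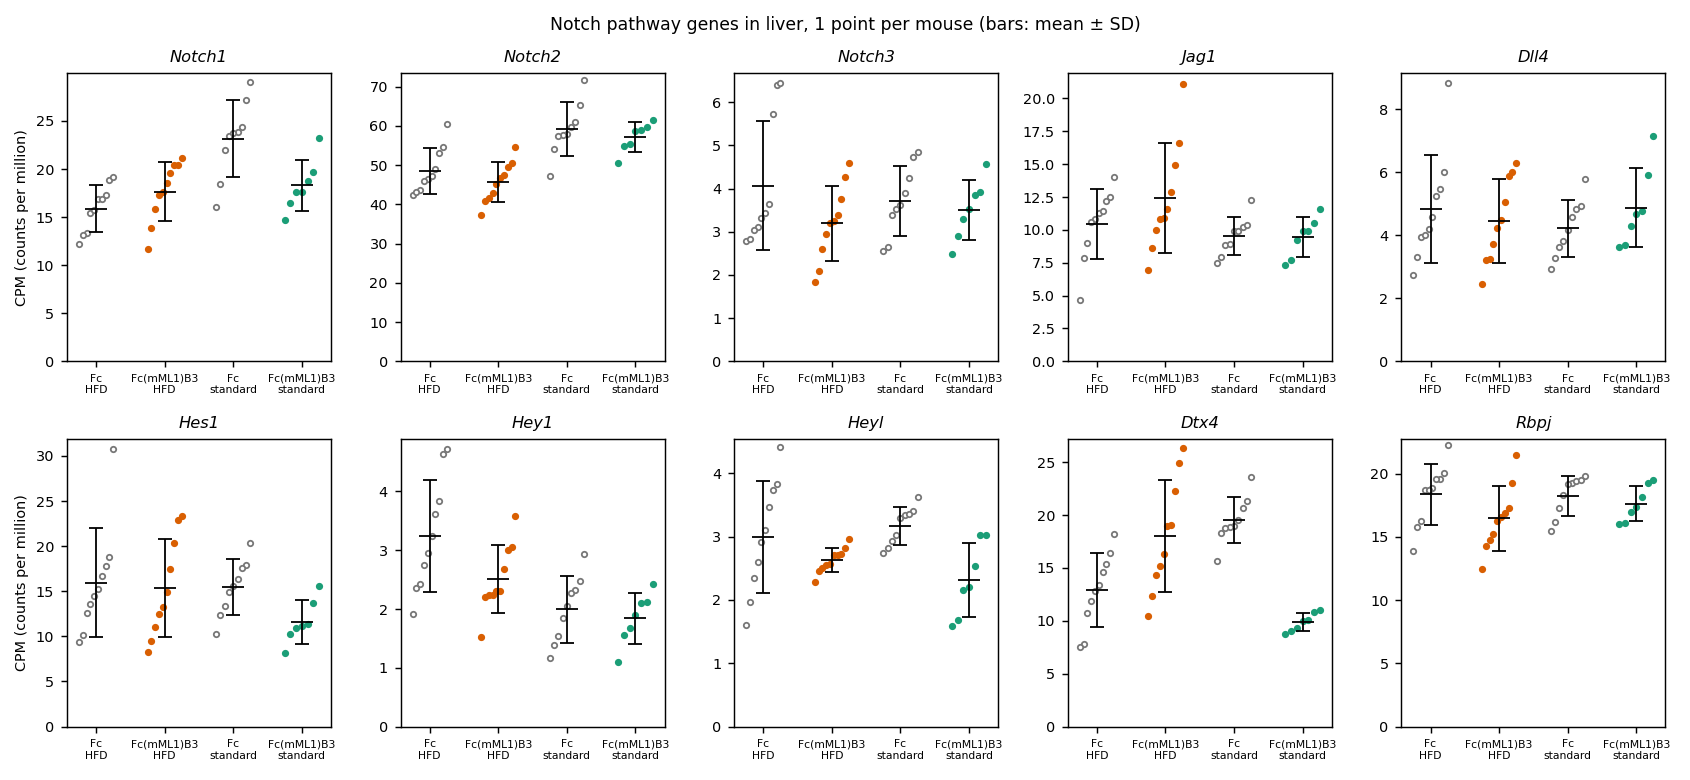
Level of each gene in CPM (y axis, linear, from 0) in the 4 groups (x axis), with 1 point per mouse and bars for the mean ± SD. Dtx4 in the 7 Fc(mML1)B3 mice on the standard diet lies at 8.72 to 11 CPM, below all 9 Fc mice at 15.7 to 23.6 CPM, while the groups overlap for the other genes.

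Dtx4 lies on chromosome 19 from 12466336 to 12501996 on the minus strand of mm10, with 5770 bases of exons that overlap no other gene. Under the standard diet, it ranged from 15.7 to 23.6 CPM in the Fc mice, around a median of 19. The Fc(mML1)B3 mice had 10.1, 10, 10.8, 11, 8.72, 9.32 and 9.08 CPM in mice 1 to 7. All 7 lay below all 9 Fc mice, at means of 9.87 ± 0.862 CPM (SD, n = 7) against 19.5 ± 2.2 CPM (SD, n = 9), which is -0.99 on the log2 scale. Of 13570 genes tested there, 1.14% had all Fc(mML1)B3 mice below all Fc mice, a share given only as background since Dtx4 was selected on this contrast. Against the Fc mice 6 to 9 alone, which lay at 18.3 to 21.3 CPM, the log2 fold change was -0.97.

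Under the HFD, which the choice of Dtx4 did not use, the order of the groups was the opposite. Dtx4 ranged from 7.56 to 18.2 CPM in the Fc mice, around a median of 13.1. The Fc(mML1)B3 mice spanned 10.5 to 26.3 CPM around a median of 17.7. Of the 10 Fc(mML1)B3 mice, 8 lay above the median of the Fc mice and 5 above all of them. The log2 fold change was 0.49 ± 0.17 (SE), and it missed the threshold with edgeR (adjusted p = 0.0604) but passed it with DESeq2 (adjusted p = 0.0352). The Fc(mML1)B3 mice were not alike. Mice 5 to 10 stood at 16.3 to 26.3 CPM and mice 1 to 4 at 10.5 to 15.2 CPM, without overlap. Mice 5 to 10 differed from the Fc mice by 0.74 on the log2 scale (adjusted p = 0.00606), and mice 1 to 4 by 0.03 (adjusted p = 0.939). Leaving out mouse 1 or 4 of the Fc group, or mouse 1 or 2 of the Fc(mML1)B3 group, also brought the adjusted p below the threshold, to between 0.0249 and 0.0476.

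Ordered by mean, Dtx4 was highest in Fc mice under the standard diet (19.5 CPM), then in Fc(mML1)B3 mice under the HFD (18 ± 5.28 CPM, SD, n = 10), in Fc mice under the HFD (12.9 ± 3.52 CPM, SD, n = 10) and in Fc(mML1)B3 mice on the standard diet (9.87 CPM). The ranges of neighbours in this order overlapped in each case. Between the diets, Dtx4 was higher by 0.59 on the log2 scale under the standard diet in Fc mice and the corresponding value was -0.89 in Fc(mML1)B3 mice. The difference between the treatment effects of the diets was -1.46. These 3 values include the mice on which Dtx4 was chosen and were not tested.

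Of the other Deltex genes, 1 passed the test between the treatments. Dtx3l, a ligase of the same family, rose under the standard diet from a mean of 52.7 to 59.5 CPM (log2 fold change 0.17 ± 0.05, SE, adjusted p = 0.0294), although its exons overlap those of Parp9 and reads were counted without strand. The call was lost without Fc mouse 7 or 9 or Fc(mML1)B3 mouse 2, 6 or 7. Under the HFD, Dtx3l differed by 0.05 (adjusted p = 0.745). Dtx2 differed by 0.15 with the HFD (adjusted p = 0.365) and by -0.07 with the standard diet (adjusted p = 0.744). Dtx3 and Dtx1 had lower means in Fc(mML1)B3 mice under both diets, with adjusted p between 0.136 and 0.4. Between the diets, Dtx3 was lower under the standard diet in Fc mice (log2 fold change -0.49, adjusted p = 0.00806) and in Fc(mML1)B3 mice (-0.54, adjusted p = 0.0191).

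Among the receptors, Notch1 fell under the standard diet and did not pass the test under the HFD. It ranged under the standard diet from 16.1 to 29.1 CPM in the Fc mice, around a median of 23.8. The Fc(mML1)B3 mice had 14.7, 17.6, 18.8, 16.5, 17.6, 19.7 and 23.2 CPM in mice 1 to 7. All 7 lay below the median of the Fc mice, but only mouse 1 lay below all of them. The log2 fold change was -0.34 ± 0.11 (SE, adjusted p = 0.0389). Against the Fc mice 6 to 9 alone, which stood at 16.1 to 23.8 CPM against 23.4 to 29.1 CPM in Fc mice 1 to 5, it was -0.13 (adjusted p = 0.551). The call was also lost in 11 of the 16 fits without 1 library, those without Fc mouse 1, 2, 3, 4, 5 or 9 or Fc(mML1)B3 mouse 1, 2, 3, 4 or 5, with log2 fold changes of -0.40 to -0.29 over the 16. Under the HFD, Notch1 ranged from 12.2 to 19.2 CPM in Fc mice and from 11.7 to 21.2 CPM in Fc(mML1)B3 mice (log2 fold change 0.15 ± 0.10, SE, adjusted p = 0.34). Its treatment effect differed between the diets by -0.47 ± 0.16 (SE), a difference that just missed the threshold with edgeR (adjusted p = 0.053) and passed it with DESeq2 (adjusted p = 0.0292), upper-quartile normalization (adjusted p = 0.0447) and limma-voom (adjusted p = 0.0202).

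Notch2, the most abundant receptor here, did not pass the test between the treatments. It ranged from 42.3 to 60.6 CPM in Fc and from 37.4 to 54.6 CPM in Fc(mML1)B3 mice under the HFD (log2 fold change -0.09 ± 0.07, SE, adjusted p = 0.464). In the standard diet experiment the ranges were 47.1 to 71.7 and 50.5 to 61.6 CPM (-0.05, adjusted p = 0.66). Notch3, the receptor of mural cells, ranged from 2.79 to 6.44 CPM in Fc and from 1.84 to 4.58 CPM in Fc(mML1)B3 mice under the HFD (-0.34 ± 0.19, SE, adjusted p = 0.245). Its log2 fold change under the standard diet was -0.09 (adjusted p = 0.743). The receptor Notch4, from the wider list below, had means of 3.63 to 3.88 CPM in all 4 groups.

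Neither ligand passed the test. Jag1, the ligand that bile duct development depends on, ranged from 4.68 to 14 CPM in Fc and from 6.94 to 21.1 CPM in Fc(mML1)B3 mice under the HFD (0.26, adjusted p = 0.356). Of the 10 Fc(mML1)B3 mice, 3 lay above all Fc mice, and the medians were close, at 11.2 and 11 CPM. With the standard diet its means were 9.55 ± 1.44 (SD, n = 9) and 9.46 ± 1.52 CPM (SD, n = 7). Dll4, a ligand of endothelial cells, differed by -0.12 with the HFD (adjusted p = 0.72) and 0.21 with the standard diet (adjusted p = 0.4). Its exons share 217 bases with Gm14207 on the other strand, whose reads cannot be told apart from its own. Rbpj differed by -0.16 under the HFD (adjusted p = 0.275), with 8 of 10 Fc(mML1)B3 mice below the Fc median, and by -0.05 under the standard diet (adjusted p = 0.633).

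Of the target genes, Hes1 and Heyl fell under the standard diet. Hes1 ranged from 10.3 to 20.4 CPM in the Fc mice, around a median of 15.6. The Fc(mML1)B3 mice had 10.3, 10.9, 15.6, 8.1, 13.7, 11.4 and 11.2 CPM in mice 1 to 7, which puts mouse 3 next to the Fc median and mouse 4 below all Fc mice. The log2 fold change was -0.41 ± 0.13 (SE, adjusted p = 0.0397). Heyl ranged from 2.74 to 3.62 CPM in the Fc mice, with a median of 3.3. It was 2.15, 1.69, 2.2, 3.02, 1.59, 2.53 and 3.03 CPM in the Fc(mML1)B3 mice, of which 5 lay below all Fc mice. Its log2 fold change was -0.46 ± 0.14 (SE, adjusted p = 0.0291). Hey1 was not called, at -0.12 (adjusted p = 0.715), nor was Nrarp, a target from the wider list below, at 0.011 (adjusted p = 0.977).

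Both calls stood close to the threshold. Against the Fc mice 6 to 9 alone, the log2 fold change was -0.42 for Hes1 (adjusted p = 0.0939) and -0.47 for Heyl (adjusted p = 0.148), as large as with all Fc mice. The call of Hes1 was lost in 11 of 16 fits without 1 library, those without Fc mouse 2, 4, 5, 6, 7 or 9 or Fc(mML1)B3 mouse 1, 2, 4, 6 or 7, and with limma-voom (adjusted p = 0.0731). That of Heyl was lost in 4, those without Fc mouse 9 or Fc(mML1)B3 mouse 1, 2 or 5. The log2 fold changes over these fits were -0.50 to -0.34 for Hes1 and -0.53 to -0.38 for Heyl.

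Under the HFD no target passed the test. Hes1 had the widest spread, from 9.32 to 30.8 CPM in Fc mice and from 8.32 to 23.3 CPM in Fc(mML1)B3 mice (-0.06, adjusted p = 0.884). The value of 30.8 CPM belonged to Fc mouse 1, and without it the log2 fold change was 0.11. Hey1, a HEY repressor of vessels, ranged from 1.92 to 4.72 CPM in Fc and from 1.53 to 3.59 CPM in Fc(mML1)B3 mice, with 9 of 10 below the Fc median (-0.36, adjusted p = 0.164). Heyl ranged from 1.6 to 4.41 CPM in Fc mice and over the much narrower 2.29 to 2.97 CPM in Fc(mML1)B3 mice, all 10 of them below the Fc median of 3.01 (-0.19, adjusted p = 0.434).

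In number, 0 of the 10 genes passed the test with edgeR under the HFD, 2 had an unadjusted p below 0.05 (Hey1 and Dtx4), and DESeq2 called 1 (Dtx4). Among all 13299 genes tested there, 6.68% were called lower and 8.14% higher in Fc(mML1)B3 mice. With the standard diet, 3 of the 9 genes other than Dtx4 were called lower and none higher, where 7.55% of 13570 genes were lower and 8.56% higher. The median log2 fold change of the 9 was -0.09, against -0.011 over all genes tested, and 8 of the 9 were below 0, as were 52.5% of all genes. These 9 genes are few and were chosen with earlier results known, so the count is no independent evidence. In the interaction of treatment and diet, 9.06% of 14105 genes were called and, with edgeR, 0 of the 9, of which Notch1 had an unadjusted p of 0.00491, and DESeq2, upper-quartile normalization and limma-voom each called 1, Notch1.

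**Figure D2:**
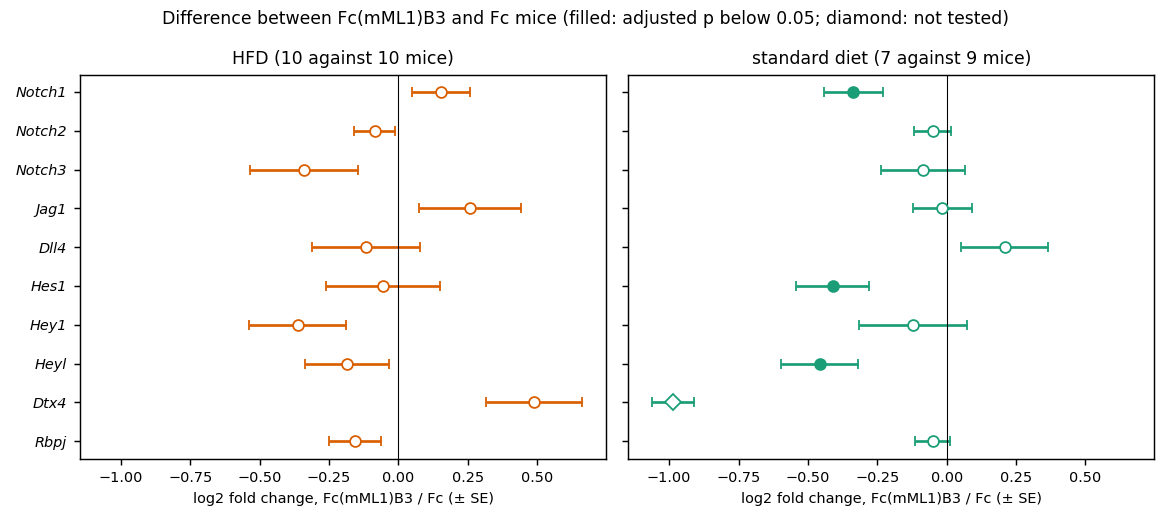
Log2 fold change of Fc(mML1)B3 over Fc mice ± SE (x axis) for each of the 10 genes (y axis) under the HFD (left) and the standard diet (right). Filled points passed the test at an adjusted p below 0.05, which only Notch1 (-0.34), Hes1 (-0.41) and Heyl (-0.46) did, and the diamond marks Dtx4 under the standard diet (-0.99), which was not tested. The bar of the diamond belongs to the contrast that chose Dtx4 and is no support for its difference.

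Between the diets, Notch2 was higher under the standard diet in both treatment groups and Hey1 was lower. In Fc mice the log2 fold change of the standard diet over the HFD was 0.27 for Notch2 (adjusted p = 0.00501), with all 9 mice above the HFD median, and -0.71 for Hey1 (adjusted p = 0.00402), with all 9 below it. In Fc(mML1)B3 mice it was 0.31 for Notch2 (adjusted p = 0.00229), with 6 of 7 mice above all mice of the HFD, and -0.47 for Hey1 (adjusted p = 0.0471). Notch1 rose in Fc mice, by 0.53 (adjusted p = 0.000268), with 7 of 9 above all Fc mice of the HFD, and differed by 0.04 in Fc(mML1)B3 mice (adjusted p = 0.799). The call of Hey1 in Fc(mML1)B3 mice was lost in 12 of 17 fits without 1 library, those without mouse 3, 4, 5, 7, 8 or 10 of the HFD or mouse 1, 2, 3, 5, 6 or 7 of the standard diet, with log2 fold changes of -0.55 to -0.38, while those of Fc mice held in all 19.

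These calls are 3 of 9 genes in Fc mice, where 25.2% of all genes tested were called lower and 23.9% higher, and 2 of 9 in Fc(mML1)B3 mice, where 19.1% were lower and 19.1% higher. Diet comparisons share their mice with the treatment comparisons, so the values are set side by side and not counted as further support. Cell type markers also differed between the diets. In Fc mice, 4 of 8 stellate and mural cell markers, 3 of 6 cholangiocyte markers, all 6 lymphocyte markers, 1 of 6 macrophage markers and 1 of 7 endothelial markers were lower under the standard diet, and in Fc(mML1)B3 mice 3 of 8, 3 of 6, 1 of 6, 1 of 6 and 1 of 7. Higher were 1 stellate and mural cell marker, 1 endothelial marker and 2 of 7 hepatocyte markers in each treatment group. Summed stellate and mural cell markers ranged in Fc mice from 214 to 409.1 CPM with the HFD and from 188.1 to 277.5 CPM with the standard diet. The part of cell types in the diet values of Notch1, Notch2 and Hey1 was not tested.

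The wider pathway was described with a list of 61 genes by role, which includes the 10. It was written with earlier results known. Under the HFD, 54 could be tested, of which 2 were lower (Cir1 and Kdm5a) and 1 was higher (Psen2) in Fc(mML1)B3 mice, where 6.68% of all genes tested were called lower and 8.14% higher. On the standard diet, 8 of 53 genes other than Dtx4 were lower (Notch1, Hes1, Heyl, Poglut1, Mib1, Adam17, Psen2 and Ncor1) and 3 were higher (Aph1a, Snw1 and Dtx3l), where the shares over all genes were 7.55% lower and 8.56% higher. The median log2 fold change of the list was -0.0083 with the HFD and -0.07 with the standard diet, against -0.0099 and -0.011 over all genes tested. The ligands Jag2, Dll3, Dlk1 and Dlk2 and the targets Hes5, Hes7 and Hey2 had too few reads to be tested under either diet, with medians of at most 8 reads in each group.

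**Figure D3:**
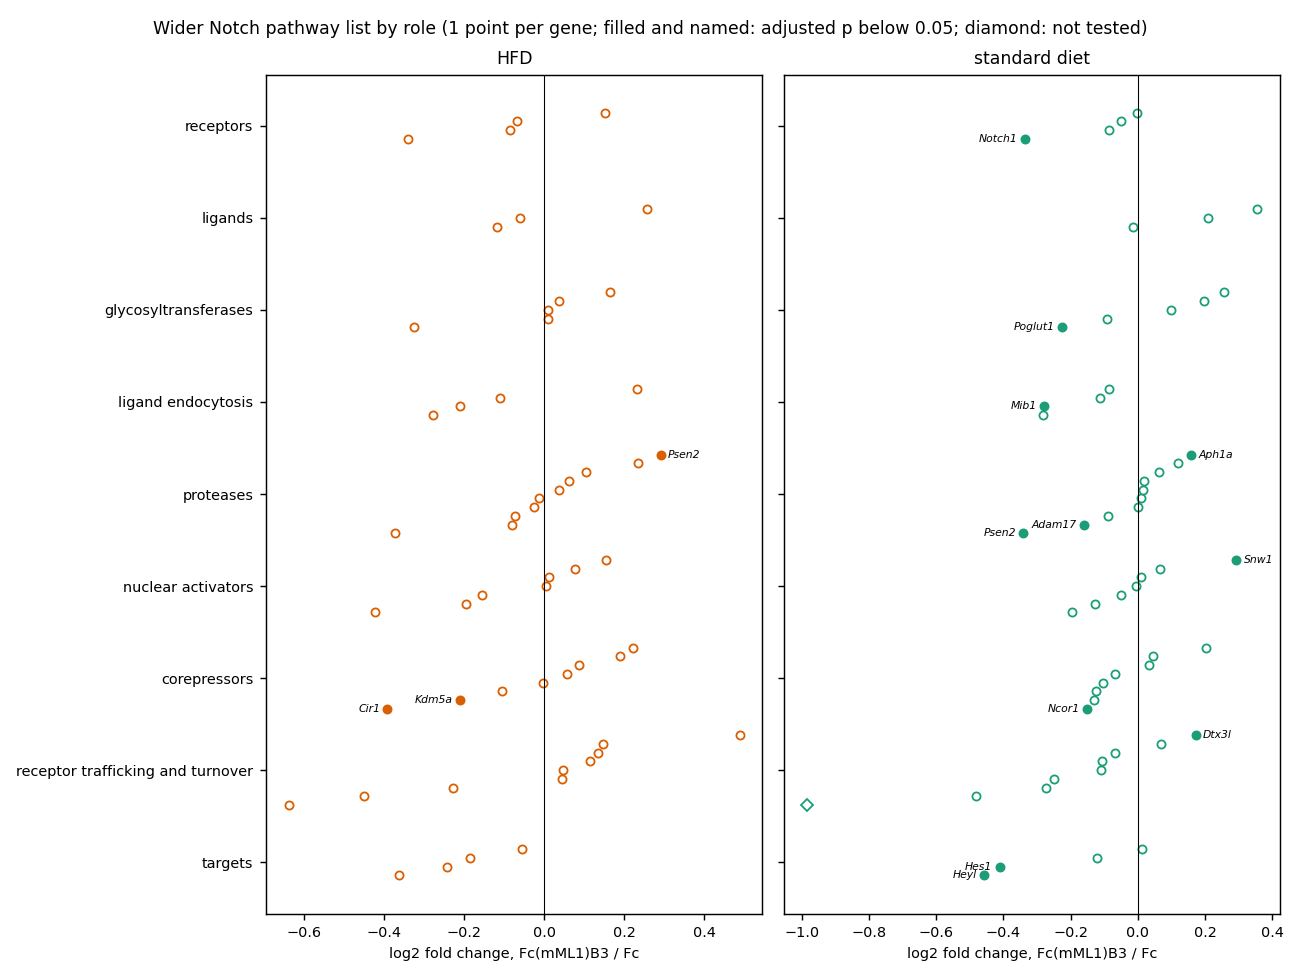
Log2 fold change of Fc(mML1)B3 over Fc mice (x axis) for the genes of the wider Notch list by role (y axis), 1 point per gene, under the HFD (left) and the standard diet (right). Filled and named points passed the test at an adjusted p below 0.05, 3 genes with the HFD and 11 with the standard diet, and the diamond is Dtx4, not tested there.

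Psen2 was the gene of the list called under both diets, and in opposite directions. Under the HFD it ranged from 134.7 to 217.9 CPM in Fc mice, around a median of 177, and from 174.6 to 259.1 CPM in Fc(mML1)B3 mice, with a median of 209 (log2 fold change 0.29 ± 0.09, SE, adjusted p = 0.0315). With the standard diet its ranges were 134.1 to 210.8 CPM in Fc mice and 105.8 to 158.3 CPM in Fc(mML1)B3 mice (-0.34 ± 0.09, SE, adjusted p = 0.0147). The call under the HFD was lost without Fc mouse 2, 6, 7 or 8 or Fc(mML1)B3 mouse 9 or 10, and that under the standard diet held in all 16 fits without 1 library. The groups overlapped under both diets. The difference between the 2 effects was -0.62 ± 0.13 (SE, adjusted p = 0.00151). Within the header series the calls were lost, with 0.23 (adjusted p = 0.224) for mice 1 to 4 and 0.34 (adjusted p = 0.0508) for mice 5 to 10 under the HFD, and -0.18 (adjusted p = 0.297) against the Fc mice 6 to 9 under the standard diet. Like Dtx4, Psen2 thus had its higher mean in Fc(mML1)B3 mice under the HFD and in Fc mice under the standard diet. Notch1, Jag1, Mib1, Ncor1 and other genes of the list had the same order of means.

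Of the other protease genes, Adam17, which makes the first cut, fell by 0.16 on the log2 scale under the standard diet (adjusted p = 0.0275) and Aph1a, a γ-secretase subunit, rose by 0.16 (adjusted p = 0.0219). Both overlap a neighbouring gene in their exons, and the call of Adam17 was lost without Fc mouse 9 or Fc(mML1)B3 mouse 2 or 5. On the side of receptor glycosylation and ligand uptake, Poglut1, which adds glucose to Notch, fell by 0.23 (adjusted p = 0.0297) and Mib1, the ubiquitin ligase that ligands need, fell by 0.28 (adjusted p = 0.0422). The call of Mib1 was lost in 9 of 16 fits without 1 library, those without Fc mouse 1, 4 or 9 or Fc(mML1)B3 mouse 2, 3, 4, 5, 6 or 7, with adjusted p up to 0.0823. That of Poglut1 was lost in 5, those without Fc mouse 6 or 9 or Fc(mML1)B3 mouse 1, 4 or 6.

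The nuclear cofactor Snw1 binds RBPJ and also takes part in splicing. It had the smallest p between the treatments among the genes of the list tested, which leaves out Dtx4 under the standard diet. Its exons share 15 bases with Slirp on the other strand. It ranged under the standard diet from 38.6 to 45.5 CPM in Fc mice and from 46.7 to 52.5 CPM in Fc(mML1)B3 mice, so that the groups did not overlap, which 1.76% of the genes tested there shared in this direction. The log2 fold change was 0.29 ± 0.04 (SE, adjusted p = 0.000108), and it stayed called in all 16 fits without 1 library and against the Fc mice 6 to 9 alone. Under the HFD the means were 51.1 in both groups, and the difference between the diets was 0.30 (adjusted p = 0.0017). Among corepressors, Cir1, which links RBPJ to histone deacetylases, fell under the HFD from a mean of 23.1 to 17.5 CPM (-0.39 ± 0.09, SE, adjusted p = 0.00287). Kdm5a, a histone demethylase found with RBPJ, fell by 0.21 under the HFD (adjusted p = 0.0284), and Ncor1 fell by 0.15 under the standard diet (adjusted p = 0.0296). The exons of Kdm5a share 271 bases with Ccdc77 and those of Ncor1 share 32 with Ttc19, both on the other strand. The call of Kdm5a was lost in 6 of 20 fits without 1 library (Fc mouse 1, 2, 6 or 9 or Fc(mML1)B3 mouse 9 or 10), and that of Ncor1 in 6 of 16 (Fc mouse 1 or 9 or Fc(mML1)B3 mouse 3, 4, 5 or 7). Against Fc mice 6 to 9, 3 of the 11 calls under the standard diet held (Snw1, Poglut1 and Dtx3l). With Fc(mML1)B3 mice 1 to 4 alone, edgeR called 0 genes of the list under the HFD, and Cir1 had a log2 fold change of -0.42 (adjusted p = 0.0582).

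Over the 36 mice, with the mean of each group subtracted from log2 CPM, Dtx4 varied together with Jag1 (Pearson r = 0.696, Spearman rho = 0.638), Rbpj (0.675 and 0.628) and Notch2 (0.568 and 0.58). Its correlation with Dll4 was negative (-0.288 and -0.336), and with Notch1 weak (0.232 and 0.175). Of the 45 pairs among the 10 genes, 5 had r above 0.5, all among Dtx4, Jag1, Rbpj and Notch2, and 7 had r below 0, all with Dll4. Within groups the value for Dtx4 and Jag1 was 0.846 and 0.692 in Fc and Fc(mML1)B3 mice under the HFD, 0.569 in Fc mice on the standard diet and -0.388 in the 7 Fc(mML1)B3 mice there, the opposite sign. Over the marker lists of cell types, all 6 cholangiocyte markers had r above 0 with Dtx4 (0.455 to 0.636), Jag1 (0.552 to 0.77) and Rbpj (0.52 to 0.721). The 7 hepatocyte markers had medians of -0.56, -0.597 and -0.496 with these 3 genes, all below 0 but 1 with Dtx4 (0.0094). The 8 stellate and mural cell markers ranged more widely, from -0.0203 to 0.596 with Dtx4, -0.0674 to 0.624 with Jag1 and 0.0489 to 0.627 with Rbpj. The 7 endothelial markers ranged from -0.641 to 0.315, -0.667 to 0.398 and -0.582 to 0.313, with 1 above 0 for each gene. Fc(mML1)B3 mouse 5 under the HFD had the highest sums of its group for cholangiocyte markers (192.2 CPM, group median 79.01) and for stellate and mural cell markers (442.1 CPM, group median 244.8). Its sums for hepatocyte markers (71280 CPM, group median 120300) and endothelial markers (186 CPM, group median 251) were the lowest. Without it, r with Dtx4 was 0.699 for Jag1, 0.71 for Rbpj and 0.57 for Notch2. The part of cell types in these correlations was not tested. Correlations across mice of mixed tissue share library composition and are given as a description.

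**Figure D4:**
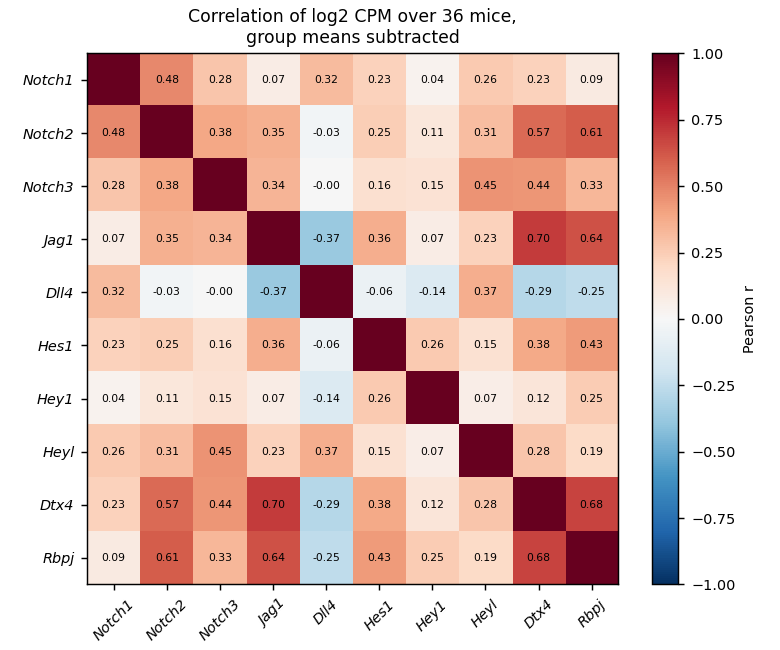
Pearson r between the 10 genes (both axes) over 36 mice, with group means subtracted from log2 CPM, from blue (-1) to red (1). The values above 0.5 lie among Notch2, Jag1, Dtx4 and Rbpj, with 0.696 for Dtx4 with Jag1, and Dll4 has the 7 values below 0.

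Of 14105 genes, those most like Dtx4 by this measure were Dhrs9 (r = 0.823), Ralgapa1 (0.82), Myef2 (0.816), Fchsd1 (0.809) and Cdh1 (0.802), and without the 2 mice farthest from the median of Dtx4 their r was 0.779 to 0.824. For the ligands, they were Pdgfd (0.849) and Ildr1 (0.84) with Jag1, and Cdh5 (0.806), the cadherin of endothelial cells, and Epb4.1l3 (0.795) with Dll4. Notch3 was most like Hspg2 (0.813) and Ltbp4 (0.761), both genes of extracellular matrix, Notch2 like Slk (0.731) and Ccdc88c (0.681), and Notch1 like Atxn1 (0.672) and Nedd4l (0.671). For Rbpj, Cd2ap (0.828) is given. The genes most like the targets were Gm6484 (0.705) and Klf10 (0.667) for Hes1, Armc10 (0.653) and Cxx1c (0.616) for Hey1, and Mre11a (0.655) for Heyl.

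Marker genes of cell types that express Notch genes were measured beside these results. In bulk liver, fewer cells of a type and less RNA per cell cannot be told apart. With the standard diet, all 8 stellate and mural cell markers had lower means in Fc(mML1)B3 mice and 2 of them fell, Pdgfrb by 0.51 (adjusted p = 0.0073) and Des by 0.36 (adjusted p = 0.0239), the same direction as Heyl. Over all genes tested there, 52.5% had a log2 fold change below 0 and 7.55% were called lower. Their summed level was 188.1 to 277.5 CPM in Fc and 187.1 to 212.5 CPM in Fc(mML1)B3 mice. All 6 cholangiocyte markers also had lower means and 1 fell, Sox9 by 0.50 (adjusted p = 0.0402), with sums of 47.32 to 79.31 and 37.26 to 62.78 CPM. With edgeR 0 of the 7 endothelial markers passed the test there and 0 had an unadjusted p below 0.05, and their sums were 217.2 to 267.1 and 210.6 to 269.2 CPM. Under the HFD, edgeR called 0 of the 8 stellate and mural cell markers, 0 of the 6 cholangiocyte markers and 0 of the 7 endothelial markers, of which 1, 0 and 1 had an unadjusted p below 0.05. Of 6 lymphocyte markers there, 5 were below 0, as were 51.7% of all genes, and 1 was called, Ms4a1 (-0.68, adjusted p = 0.0429). With the standard diet 0 lymphocyte markers were called. Macrophage markers had 0 calls under either diet, and 3 of 6 had an unadjusted p below 0.05 under the HFD. Among 7 hepatocyte markers, 0 were called under the HFD and Cps1 was higher under the standard diet (0.19, adjusted p = 0.0313). No marker of these lists was at 0 in any library, and the part of cell types in the results for Notch1, Hes1 and Heyl was not tested.

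Clock genes differed between the treatment groups in both experiments. With Fc(mML1)B3, 7 of 13 clock genes were lower and 5 higher under the HFD, and 4 of 14 were lower and 6 higher under the standard diet, against 6.68% and 8.14% of all genes under the HFD and 7.55% and 8.56% under the standard diet. Arntl, which encodes BMAL1, ranged from 0.619 to 2.09 CPM in Fc and from 6.68 to 28.7 CPM in Fc(mML1)B3 mice under the HFD (log2 fold change 3.98). In the standard diet experiment it ranged from 2.3 to 6.45 and from 0.918 to 3.39 CPM (-1.05). Of the 9 clock genes called under both diets, 2 (Arntl and Clock) were higher under the HFD and lower under the standard diet, 4 (Per1, Per3, Tef and Ciart) were the reverse, 2 (Cry1 and Per2) were higher in both and 1 (Nr1d1) was lower in both. Within the HFD, Arntl was 6.68 to 17.1 CPM in Fc(mML1)B3 mice 1 to 4 and 10.1 to 28.7 CPM in mice 5 to 10, the mice in which Dtx4 was higher. With group means subtracted, r between Dtx4 and Arntl over the 36 mice was 0.487 (rho = 0.386), and 0.39 without the 2 mice farthest from the median of Dtx4. Within groups it was 0.484 and 0.757 in Fc and Fc(mML1)B3 mice under the HFD and 0.704 in Fc mice on the standard diet, but -0.674 in the 7 Fc(mML1)B3 mice there. Dbp, a clock output gene, ranged from 72.35 to 132.4 CPM in Fc and from 3.13 to 25.2 CPM in Fc(mML1)B3 mice under the HFD, and overlapped between the groups under the standard diet. Of the 1678 exonic bases of Dbp, 1617 overlap Sphk2 on the other strand, whose reads cannot be told apart from its own. The clock genes named here were chosen after their values were seen, the labels give no time of day, and the part of the clock in the values of Dtx4 and Psen2 was not tested.

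**Figure D5:**
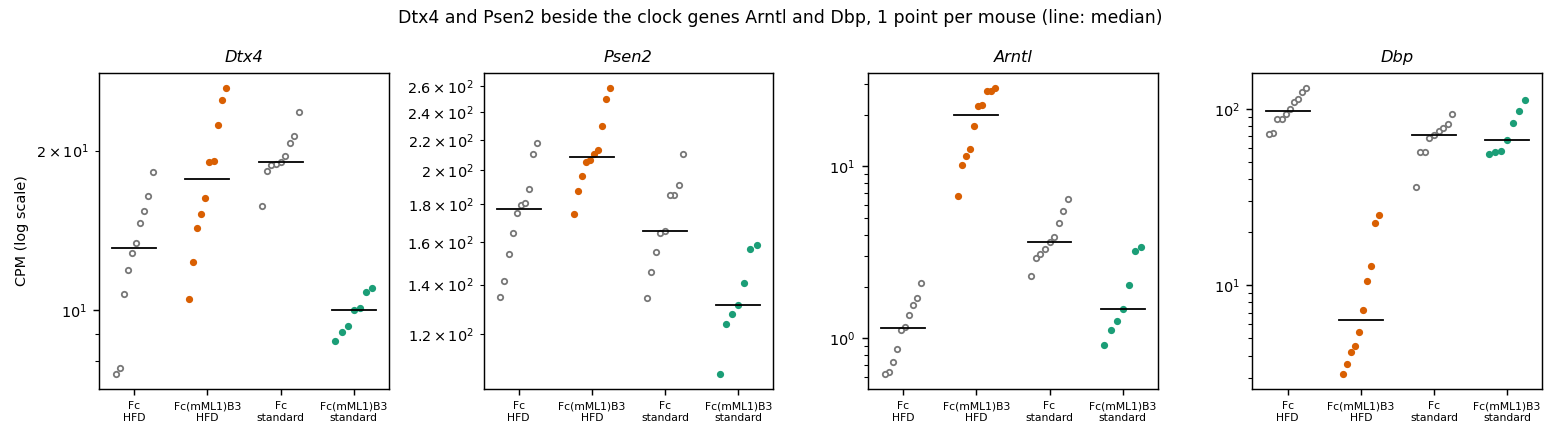
Dtx4 and Psen2 beside the clock genes Arntl and Dbp in CPM (y axis, log scale) in the 4 groups (x axis), 1 point per mouse with a line at the median. Arntl lies at 6.68 to 28.7 CPM in the Fc(mML1)B3 mice under the HFD, above all Fc mice there. Psen2 has its highest median in the same group (209 CPM). Dtx4 has its highest single value there but its highest median in Fc mice on the standard diet (19 CPM, against 17.7 CPM).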

How the data were processed

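Liver RNA of 36 mice was sequenced, 1 library per mouse. The authors trimmed reads with fastp, removed ribosomal RNA with Bowtie2 2.4.5, aligned to mm10 with STAR 2.7.10a and deposited counts per gene from featureCounts (Subread 2.0.3), counting each end of a pair with both ends aligned as a read, without strand and without reads that aligned to several places. Each comparison was tested on the deposited counts of its groups by the quasi-likelihood method of edgeR (version 4.0.16, R 4.3.3) after TMM scaling and filterByExpr, and Benjamini-Hochberg adjustment over all genes tested, called at an adjusted p below 0.05. The interaction of treatment and diet was tested over all 4 groups. Standard errors were obtained from the log2 fold change and the F statistic. CPM values use TMM over the 36 libraries, and correlations use log2 CPM with a prior count of 2.

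Groups came from the sample titles. The members and lists were chosen with earlier results of these data known. Named genes were the 10 members, genes of the wider list called in a treatment comparison (at most 8 per direction), the 5 genes most like Dtx4 and the 2 most like each other member by Pearson r. Some genes that this rule names are not reported here. Genes outside this rule are given with their lists or, for the clock genes, were chosen after their values were seen. Alternatives were DESeq2 1.42.0, limma 3.58.1 (voom with quality weights), upper-quartile normalization, no filter on low counts, a replicate block, header series, the thresholds of the study and each library left out. Alternatives for the wider list, and the correlations with marker lists and without 1 mouse, were added after seeing the data. The fit was tested on simulated data with 200 changed genes. No library was a duplicate (lowest chi-square per degree of freedom 6.305 over 147 pairs within groups). At 14949035 to 28466853 counts per library, genes of low CPM rest on few reads.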

Additional observations from a re-analysis of the deposited data

Results flagged for a closer look

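Over 40 sets of 1 gene in 1 group, 1 had a mouse set apart from the rest of its group by Dixon's limit, where chance gives about 1 in 20, or 2 of 40. Jag1 was 4.68 CPM in mouse 3 of the Fc group under the HFD, with the nearest mouse at 7.82 CPM, and the gap was 0.467 of the range of log2 CPM against a limit of 0.466.

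Of 55 genes of the wider list tested, 3 had a treatment effect that differed between the diets by the interaction test, a share below the 9.06% called among all 14105 genes. The difference in log2 fold change, standard diet minus HFD, was -0.62 for Psen2 (adjusted p = 0.00151), 0.30 for Snw1 (adjusted p = 0.0017) and -0.22 for Ncor1 (adjusted p = 0.0324). It kept its side of the threshold in the 4 alternatives of each, all of them other fits of the same libraries. For the interaction no library was left out and the header series were not separated. Within the header series, the treatment calls of Psen2 and, under the standard diet, of Ncor1 were lost. Diet, experiment, dosing and duration cannot be told apart.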

How the results depend on the processing

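Of the 10 genes, 0 passed under the HFD, and 1 (Dtx4) did with DESeq2 and with Fc(mML1)B3 mice 5 to 10 only, with a range of 0 to 1 without 1 library. For the wider list under the HFD the count of 3 became 5 with limma-voom, 1 with the replicate block, 0 with Fc(mML1)B3 mice 1 to 4 only, 0 with the thresholds of the study and 1 to 5 without 1 library. Under the standard diet, 3 of 9 became 0 with the replicate block, with Fc mice 6 to 9 only and with the thresholds of the study (fold change over 1.5). Without 1 library the count was 0 to 3. The wider list's 11 became 1, 3 and 0 under the same settings and 3 to 12 without 1 library. With Fc mice 6 to 9 only, the number of mice and the header series changed together. The count between diets was 3 in every fit without 1 library in Fc mice. In Fc(mML1)B3 mice, 2 became 1 with every gene of at least 1 read (more genes tested), 1 with the replicate block, 3 with upper-quartile normalization and 1 to 4 without 1 library. In the interaction, 0 became 1 (Notch1) with DESeq2, with upper-quartile normalization and with limma-voom. The causes of these changes in count were not tested.

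Directions turned only for values that did not pass the test. With Fc(mML1)B3 mice 1 to 4 only under the HFD, Jag1 was -0.11 and Dll4 0.10, and with mice 5 to 10 only Hes1 was 0.14. Under the standard diet, Jag1 was 0.046 with the replicate block, and Notch2 0.063 and Rbpj 0.020 with Fc mice 6 to 9 only. Between diets, upper-quartile normalization gave -0.025 for Heyl in Fc mice and -0.027 for Notch1 in Fc(mML1)B3 mice. Without 1 library, the log2 fold change ranged under the HFD from -0.13 to 0.11 for Hes1 and -0.19 to 0.022 for Dll4, under the standard diet from -0.070 to 0.037 for Jag1, between diets in Fc mice from -0.11 to 0.10 for Hes1 and -0.047 to 0.019 for Rbpj, and in Fc(mML1)B3 mice from -0.025 to 0.086 for Notch1.

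The shared replicate numbers did not pair the mice. Same-numbered mice correlated above 0.1 in 1 of 10 pairs under the HFD, 0 of 7 under the standard diet, 1 of 9 between diets in Fc mice and 2 of 7 in Fc(mML1)B3 mice. Hey1, Heyl, Notch3 and Dll4 are limited by their low counts.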
